A study of Homo sapiens with 6 samples.

Results

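Glucose breakdown and the response to low oxygen were examined through 32 genes in A549, an established cell line of human lung adenocarcinoma. The genes were picked by symbol from a table of 58735 genes and fell into 16 glycolytic enzymes and 16 genes of the pathway of hypoxia-inducible factor (HIF). The cells carried a plasmid for ZBTB16, a BTB zinc finger transcription factor also called PLZF, in 3 libraries, or pcDNA3.1, an expression vector, in 3 libraries, and the labels give the ZBTB16 cells as overexpression and the pcDNA3.1 cells as WT (wild type). Neither a time after transfection nor a low-oxygen treatment is named, and the 6 libraries came from whole transfected cultures of a single line. No label tells whether repeats came from separate cultures, and the p-values then reflect only how far these libraries differed, which can be technical.

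Glycolysis turns glucose into pyruvate in the cytosol, and lactate dehydrogenase then converts pyruvate to lactate, a route that many tumour cells use even when oxygen is present. HIF is a dimer of an oxygen-sensitive alpha subunit, such as HIF1A or EPAS1, and the stable partner ARNT. When oxygen is present, prolyl hydroxylases of the EGLN family mark the alpha subunit for destruction through VHL. HIF is controlled mainly at the protein level, so the HIF1A transcript is not itself a measure of HIF activity, whereas transcripts of its targets, several glycolytic enzymes among them, are widely used as one.

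The libraries held 15478010 to 17319971 reads, recovered from FPKM (reads scaled to the length of the gene and the depth of the library), and mitochondrial transcripts took 6.02% to 6.54% of them. ZBTB16 itself had 41881, 53108 and 50407 reads in the ZBTB16 libraries, against 0 in each of the 3 pcDNA3.1 libraries. All 5 epithelial markers were found, with a summed level of 1122 to 1142 FPKM with ZBTB16 and 1143 to 1215 FPKM with pcDNA3.1. The alveolar type 2 markers, which include the surfactant genes, summed to 0.584 to 0.614 FPKM with ZBTB16 and 0.393 to 0.450 FPKM with pcDNA3.1. Neither of these sums overlapped between the groups, and their part in the results was not tested. The epithelial sum was nearly all KRT8 and KRT18. KRT19 went the other way, at a mean of 33.1 FPKM with ZBTB16 and 28.9 FPKM with pcDNA3.1. Most of the alveolar type 2 sum was NAPSA, at a mean of 0.503 FPKM with ZBTB16 and 0.368 FPKM with pcDNA3.1. In that list SFTPA1 went the other way, and every gene lay under 1 FPKM. The extraction text of the labels names retinas, while 8 photoreceptor and retina markers summed to 0.635 to 0.846 FPKM with ZBTB16 and 0.574 to 1.17 FPKM with pcDNA3.1, with CRX at 0 reads. Immune markers summed to at most 0.230 FPKM with ZBTB16 and 0.156 FPKM with pcDNA3.1, with CD3E at 0. Endothelial markers summed to at most 0.288 FPKM with ZBTB16 and 0.309 FPKM with pcDNA3.1, and fibroblast markers to 2.10 to 2.41 FPKM with ZBTB16 and 2.10 to 2.44 FPKM with pcDNA3.1, nearly all of it COL1A1, with COL1A2 at 0.

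None of the tested genes among these 32 passed the test between ZBTB16 and pcDNA3.1. Of the 32 genes, 30 had a mean of at least 1 FPKM over the 6 libraries and entered the fit, and 2, HK2 and PDK1, did not. In limma on log2(FPKM + 1), at a Benjamini-Hochberg adjusted p under 0.05 over all 12499 tested genes, 0 of the 30 were higher and 0 lower. The same rule called 0.072% of all tested genes, 0.064% higher and 0.008% lower. In RNA from whole cultures, fewer cells that express a gene and less RNA per cell cannot be told apart. At an unadjusted p under 0.05, 1 member had a positive fold change (PFKFB4) and 2 a negative one (ALDOA and PFKFB3), which is 3 of 30 where 10.2% of all tested genes reached that level. With limma voom on the recovered reads 1 of the 30, PFKFB4, was called, where 1.62% of all tested genes were. The values of the groups did not overlap in 6 members that were higher with ZBTB16 and 2 that were lower. The share of all tested genes without overlap was 16.2% in either direction, 8.12% higher and 8.1% lower. Of the 15 tested HIF pathway genes 5 were higher and 0 lower without overlap. Of the 15 tested enzymes 1 was higher and 2 were lower. The difference between these parts was not tested.

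**Figure D1:**
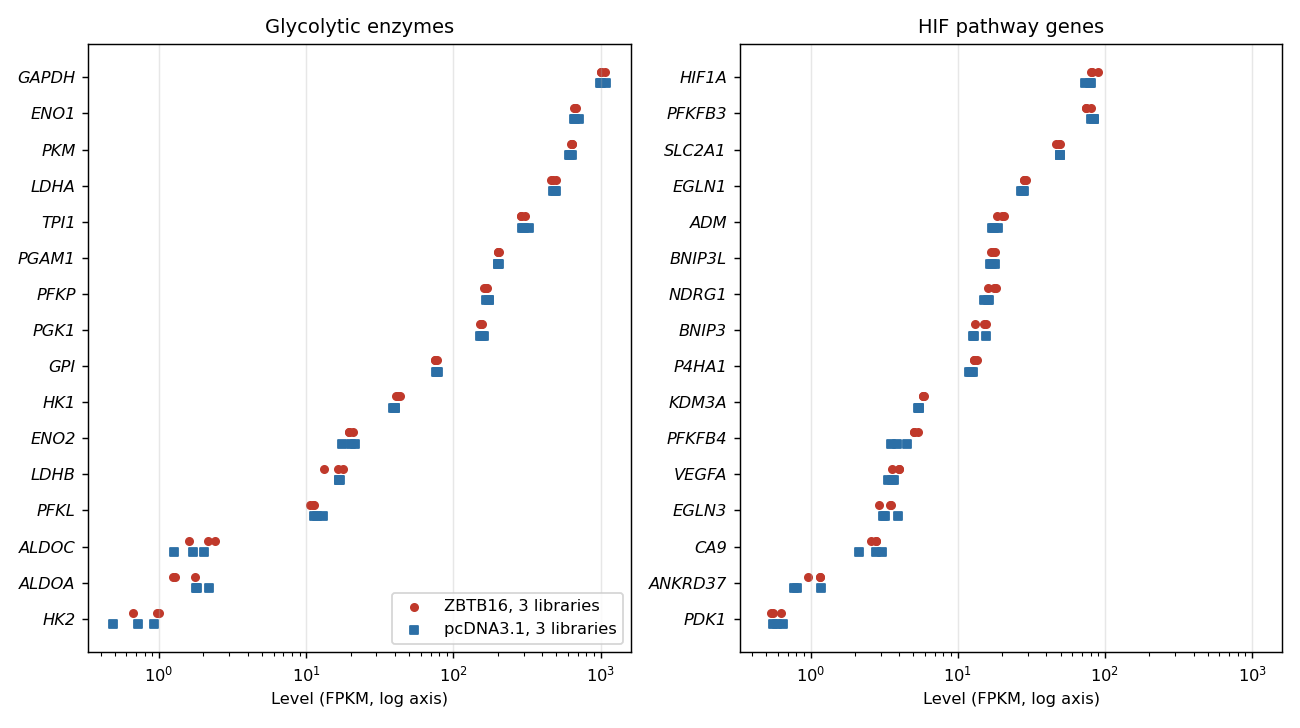
Level of each of the 16 glycolytic enzymes (left) and 16 HIF pathway genes (right) in FPKM on a log axis, with 1 point for each of the 3 ZBTB16 libraries (red circles) and 3 pcDNA3.1 libraries (blue squares). The enzymes run from GAPDH, at about 1029 FPKM with ZBTB16 and 1031 FPKM with pcDNA3.1, to HK2, at about 1 FPKM or below, and for most genes the points of the groups cover the same range.

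The most abundant members were all enzymes, while the levels of the other enzymes lay within the range of the HIF pathway genes. FPKM is scaled to gene length, so levels of different genes can be set side by side, with the reservation that the length used is that of all annotated exons merged. A mean of at least 100 FPKM was reached by 8 members, all of them enzymes, and the 15 tested enzymes together took 1.92% to 1.95% of the reads of the ZBTB16 libraries and 1.93% to 1.99% of those of the pcDNA3.1 libraries. Another 14 members lay between 10 and 100 FPKM, 8 between 1 and 10, and 2 under 1. The 15 tested HIF pathway genes took 0.193% to 0.196% of the reads with ZBTB16 and 0.189% to 0.194% with pcDNA3.1. The depth behind a member ran from 259 reads over the 6 libraries for ANKRD37 to 540668 for PKM.

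The first steps of glycolysis trap glucose in the cell. The glucose transporter SLC2A1 (GLUT1) was at 48.4 ± 1.65 FPKM with ZBTB16 and 49.7 ± 0.285 FPKM with pcDNA3.1 (SD, n = 3 each), a log2 fold change of -0.04 (SE 0.043) with a limma adjusted p of 0.855. It made up 88.4% ± 0.439 of the summed FPKM of 5 SLC2A transporter genes with ZBTB16 and 87.6% ± 0.492 with pcDNA3.1 (SD, n = 3 each). SLC2A3 (GLUT3), a transporter of the same family, stood at 5.08, 4.71 and 4.94 FPKM with ZBTB16, against 5.87, 5.87 and 5.50 FPKM with pcDNA3.1. All 3 ZBTB16 values of SLC2A3 lay below the pcDNA3.1 values, but its log2 fold change of -0.19 did not pass (limma adjusted p = 0.248).

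HK1, the hexokinase found in most tissues (chromosome 10, 69269984 to 69401884, hg38), stood at 40.6, 42.2 and 43.6 FPKM with ZBTB16, against 40.0, 40.4 and 38.7 FPKM with pcDNA3.1. The groups did not overlap, although ZBTB16 replicate 1 and pcDNA3.1 replicate 2 were nearly equal. The log2 fold change of HK1 was 0.08 (95% interval -0.02 to 0.19) with a limma adjusted p of 0.596 and an exact two-sided permutation p of 0.1, the smallest that 3 libraries against 3 allow. HK2, the hexokinase best known from tumours and a HIF target, was scarce, at 1.00, 0.965 and 0.666 FPKM with ZBTB16 and 0.917, 0.721 and 0.485 FPKM with pcDNA3.1, from 49 to 100 reads a library. It overlapped between groups and made up 1.45% ± 0.341 of the summed FPKM of HK1, HK2 and HKDC1 with ZBTB16 and 1.19% ± 0.347 with pcDNA3.1 (SD, n = 3 each). HKDC1, a further hexokinase, was the second of the family at 18.0 ± 0.795 FPKM with ZBTB16 and 18.8 ± 0.882 FPKM with pcDNA3.1. Glucose-6-phosphate isomerase, GPI, was at 75.8 ± 1.87 FPKM with ZBTB16 and 77.1 ± 1.35 FPKM with pcDNA3.1 (SD, n = 3 each), with overlapping values.

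Phosphofructokinase commits sugar to glycolysis, and its platelet-type subunit PFKP supplied most of the transcripts. PFKP was at 167, 160.2 and 168 FPKM with ZBTB16, against 174, 165 and 174 FPKM with pcDNA3.1, and made up 89.4% ± 0.193 of the family sum with ZBTB16 and 89.1% ± 0.555 with pcDNA3.1 (SD, n = 3 each). The liver-type subunit PFKL (chromosome 21, 44300051 to 44327376) stood at 11.1, 10.6 and 11.2 FPKM with ZBTB16, against 13.0, 11.9 and 11.3 FPKM with pcDNA3.1. Its groups did not overlap, with replicate 3 of each group nearly equal, and the log2 fold change of -0.12 (SE 0.060) did not pass (limma adjusted p = 0.546). It was -0.072 without pcDNA3.1 replicate 1. PFKM, the muscle-type subunit, was at 8.62 ± 0.251 FPKM with ZBTB16 and 8.91 ± 0.275 FPKM with pcDNA3.1.

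Aldolase splits the 6-carbon sugar, and the measured levels of ALDOA are limited by the annotation. ALDOA (chromosome 16, 30064164 to 30070457) had 1.75, 1.24 and 1.28 FPKM with ZBTB16, against 2.20, 1.79 and 1.81 FPKM with pcDNA3.1, from 83 to 144 reads a library. All ZBTB16 values were lower, with a log2 fold change of -0.28 (95% interval -0.52 to -0.04) and a limma adjusted p of 0.398. In GENCODE 29 the gene AC093512.2 on the same strand covers 93.8% of the coding bases of ALDOA, and it too was low, at 0.599 to 0.807 FPKM with ZBTB16 and 0.480 to 1.09 FPKM with pcDNA3.1. The rule for counting reads in exons shared by several genes was not given in the sources used here, and the part of this overlap in the level of ALDOA was not tested. ALDOC, the aldolase known from brain, overlapped between groups at 2.41, 2.16 and 1.60 FPKM with ZBTB16 and 1.27, 1.70 and 2.01 FPKM with pcDNA3.1. The share of ALDOC in the aldolase sum was 58.9% ± 3.97 with ZBTB16 and 46.0% ± 8.38 with pcDNA3.1 (SD, n = 3 each), without overlap. Its exact two-sided permutation p was 0.1, and 0.8 after Benjamini-Hochberg adjustment over 8 isoenzyme and family shares, and it rests on the limited ALDOA reads.

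The steps of glycolysis from TPI1 on held the most abundant transcripts, and none of their genes passed the test or separated the groups. TPI1, triosephosphate isomerase, was at 307, 288 and 289.7 FPKM with ZBTB16, against 326, 293 and 300.0 FPKM with pcDNA3.1. GAPDH, the dehydrogenase often used as a loading control, was at 1076, 1004 and 1006 FPKM with ZBTB16, against 1093, 992 and 1009 FPKM with pcDNA3.1. In both genes replicate 1 was the highest library of its group, and the values of the groups overlapped. For GAPDH the log2 fold change was -0.0029 (95% interval -0.12 to 0.12, limma adjusted p = 0.995).

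PGK1, the kinase that makes the first ATP of the pathway, averaged 154 ± 1.98 FPKM with ZBTB16 and 156 ± 5.89 FPKM with pcDNA3.1 (SD, n = 3 each). PGAM1, phosphoglycerate mutase, had the smallest spread of all 22 members above 10 FPKM, with a coefficient of variation of 0.968% over the 6 libraries. It stood at 200.1, 204 and 200.1 FPKM with ZBTB16, against 203, 200.1 and 200.3 FPKM with pcDNA3.1. The enolase ENO1 averaged 671 ± 6.34 FPKM with ZBTB16 and 679 ± 25.1 FPKM with pcDNA3.1 (SD, n = 3 each). Its relative ENO2, known from neurons and also a HIF target, was at 19.9 ± 0.645 FPKM with ZBTB16 and 19.6 ± 2.004 FPKM with pcDNA3.1 (SD, n = 3 each), or 2.83% and 2.75% of the enolase sum. Pyruvate kinase PKM stood at 643, 629 and 642 FPKM with ZBTB16, against 640.3, 614 and 619 FPKM with pcDNA3.1, so the groups overlapped. A count per gene does not separate the M1 and M2 splice forms of PKM.

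Lactate dehydrogenase was almost all LDHA in these counts. LDHA, the subunit that favours lactate production, was at 477, 495 and 457 FPKM with ZBTB16, against 478, 497 and 487 FPKM with pcDNA3.1. LDHB was at 17.7, 16.4 and 13.2 FPKM with ZBTB16, against 16.6, 16.6 and 16.8 FPKM with pcDNA3.1, and made up 3.19% ± 0.389 of the summed FPKM of LDHA and LDHB with ZBTB16 and 3.31% ± 0.0674 with pcDNA3.1 (SD, n = 3 each). The pcDNA3.1 values of LDHB lay close together, while ZBTB16 replicate 3 stood below all others. LDHB carries the same limit as ALDOA, since AC010197.2 on the same strand covers 93.5% of its coding bases and was at no more than 0.0340 FPKM with ZBTB16 and 0.0349 FPKM with pcDNA3.1. Named processed pseudogenes, which can draw reads from GAPDH, TPI1, PGAM1 and LDHA, held 0.317%, 1.12%, 0.381% and 0.0990% as many reads as those genes.

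**Figure D2:**
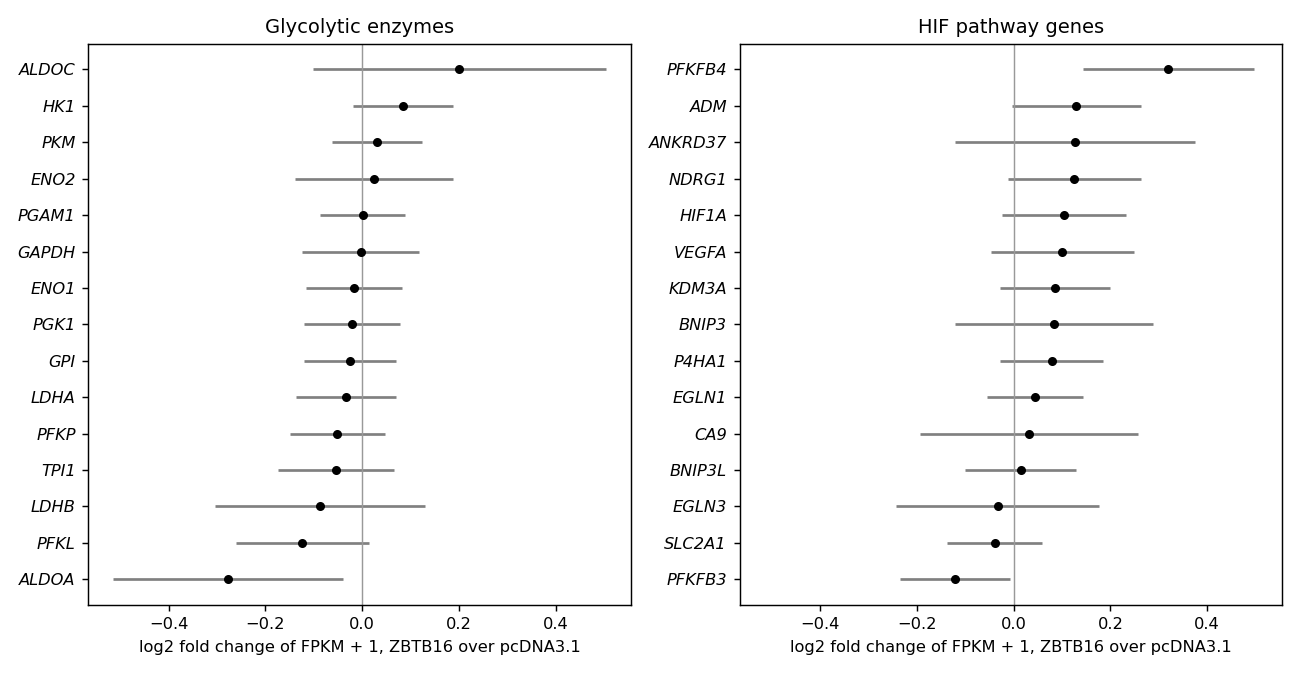
Log2 fold change of FPKM + 1, ZBTB16 over pcDNA3.1, for the 15 tested enzymes (left) and 15 tested HIF pathway genes (right), with bars for the limma 95% interval. The intervals exclude 0 without adjustment for PFKFB4, PFKFB3 and ALDOA, and 12 of the 15 HIF pathway genes have positive estimates, against 5 of the 15 enzymes.

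For the abundant members the limma intervals were narrow, without adjustment for the number of genes. They cover only the spread between these libraries, which can be technical. Among the 22 members with a mean of at least 10 FPKM, the largest absolute log2 fold change was 0.13, and the limma 95% interval held 0 in 21 of 22, the exception being PFKFB3. For the 13 such enzymes the intervals reached from 19.0% lower with ZBTB16 (LDHB) to 13.9% higher (HK1) on the FPKM + 1 scale. For the 9 such HIF pathway genes they reached from 15.0% lower (PFKFB3) to 22.0% higher (BNIP3).

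The regulators of the HIF pathway came next. HIF1A, the alpha subunit (chromosome 14, 61695513 to 61748259), stood at 81.2, 89.4 and 81.1 FPKM with ZBTB16, against 73.5, 80.7 and 79.5 FPKM with pcDNA3.1. The groups did not overlap, although ZBTB16 replicate 3 and pcDNA3.1 replicate 2 were nearly equal. The log2 fold change of HIF1A was 0.10 (95% interval -0.02 to 0.23) with a limma adjusted p of 0.605 and an exact two-sided permutation p of 0.1, the smallest possible. It was 0.058 without ZBTB16 replicate 2 and 0.063 without pcDNA3.1 replicate 1. EPAS1, the HIF2 alpha subunit, was at a similar level, 88.0 ± 3.15 FPKM with ZBTB16 and 89.1 ± 2.30 FPKM with pcDNA3.1 (SD, n = 3 each). ARNT was at 6.16 ± 0.211 FPKM with ZBTB16 and 5.58 ± 0.636 FPKM with pcDNA3.1, and VHL at 12.8 ± 0.633 FPKM with ZBTB16 and 13.5 ± 0.587 FPKM with pcDNA3.1 (SD, n = 3 each). The oxygen sensor EGLN1 was at 28.3, 29.03 and 28.05 FPKM with ZBTB16, against 26.7, 27.98 and 27.96 FPKM with pcDNA3.1, with a log2 fold change of 0.04 (limma adjusted p = 0.824). EGLN3, a sensor that is itself strongly induced by HIF, overlapped at 3.55, 3.47 and 2.90 FPKM with ZBTB16 and 3.92, 3.19 and 3.11 FPKM with pcDNA3.1. It made up 9.80% ± 0.912 of the summed FPKM of EGLN1, EGLN2 and EGLN3 with ZBTB16 and 10.4% ± 1.44 with pcDNA3.1 (SD, n = 3 each).

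On the FPKM + 1 scale PFKFB4 had the largest absolute log2 fold change of the 30 tested members. With 0.1 instead of 1 added to FPKM, ALDOA had a larger one, at -0.42 against 0.38 for PFKFB4. In limma voom ALDOA was at -0.46, against 0.39 for PFKFB4. PFKFB enzymes make and break down fructose-2,6-bisphosphate, the strongest activator of phosphofructokinase, and both PFKFB3 and PFKFB4 are HIF targets. PFKFB4 (chromosome 3, 48517684 to 48562015) stood at 5.39, 5.08 and 5.07 FPKM with ZBTB16, from 508, 530 and 537 reads, against 4.51, 3.54 and 3.84 FPKM with pcDNA3.1, from 461, 361 and 391 reads. All ZBTB16 values lay above the pcDNA3.1 values, and the mean was 30.6% higher. The log2 fold change was 0.32 (SE 0.078, 95% interval 0.14 to 0.50) and did not pass in limma on log2 FPKM (adjusted p = 0.179). In limma voom on the recovered reads it was 0.39 and passed, with an adjusted p of 0.0153. It was not tested at a mean of at least 5 FPKM. Over the other alternatives tried the limma adjusted p ran from 0.128 to 0.567, and with a library left out the log2 fold change ran from 0.26 to 0.40. UCN2 on the same strand covers 4.73% of the exon bases of PFKFB4 and none of its coding bases, and was at 8.05, 9.40 and 9.03 FPKM with ZBTB16, against 8.56, 7.85 and 7.30 FPKM with pcDNA3.1.

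PFKFB3 was the more abundant of the pair and had a fold change of the opposite sign. PFKFB3 (chromosome 10, 6144934 to 6254644) was at 73.9, 74.1 and 80.5 FPKM with ZBTB16, against 80.1, 84.7 and 84.0 FPKM with pcDNA3.1. ZBTB16 replicate 3 overlapped pcDNA3.1 replicate 1, and the log2 fold change of -0.12 (95% interval -0.23 to -0.01) did not pass (limma adjusted p = 0.441). PFKFB4 was at 7.29%, 6.85% and 6.30% of the PFKFB3 level in the ZBTB16 libraries, against 5.64%, 4.18% and 4.58% in the pcDNA3.1 libraries. This ratio did not overlap between groups. It was chosen after the values of both genes were seen, so nothing is read from it.

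Promoter windows of 300 bases are shown for this pair, whose fold changes had opposite signs, and for LDHA, an enzyme with several matches whose level did not differ beyond its spread. HIF binds DNA at a short core within the hypoxia response element, searched here as ACGTG or GCGTG on either strand, overlapping matches merged. The sequences are from RefSeq on GRCh38.p14, written in the direction of the gene, with capitals for the core letters. PFKFB4 is chr3:48556754-48557053 on the minus strand, PFKFB3 is chr10:6202682-6202981 and LDHA is chr11:18394313-18394612, both on the plus strand.
PFKFB4: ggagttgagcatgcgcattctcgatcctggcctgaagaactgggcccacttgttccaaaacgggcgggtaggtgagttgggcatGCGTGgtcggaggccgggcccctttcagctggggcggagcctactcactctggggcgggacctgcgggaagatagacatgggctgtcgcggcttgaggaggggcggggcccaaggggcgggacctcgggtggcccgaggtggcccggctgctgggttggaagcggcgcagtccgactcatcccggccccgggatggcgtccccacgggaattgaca
PFKFB3: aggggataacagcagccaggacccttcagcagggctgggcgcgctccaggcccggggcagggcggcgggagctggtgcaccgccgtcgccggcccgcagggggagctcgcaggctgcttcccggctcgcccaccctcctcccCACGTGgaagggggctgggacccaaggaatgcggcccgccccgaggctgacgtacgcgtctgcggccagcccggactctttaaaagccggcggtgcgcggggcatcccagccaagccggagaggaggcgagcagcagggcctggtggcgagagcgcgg
LDHA: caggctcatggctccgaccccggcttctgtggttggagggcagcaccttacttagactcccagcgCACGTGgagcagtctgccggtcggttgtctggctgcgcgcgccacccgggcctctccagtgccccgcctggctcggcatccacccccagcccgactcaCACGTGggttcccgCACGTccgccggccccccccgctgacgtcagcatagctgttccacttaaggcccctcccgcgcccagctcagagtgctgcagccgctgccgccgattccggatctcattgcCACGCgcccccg
These windows held 1, 1 and 4 marked stretches. Where a gene had several windows, the one shown was picked for an ACGTG match and then for the most marked stretches. PFKFB3 and LDHA each had a further window, with 1 marked stretch in each. Of the 32 members 29 had such windows, 47 in all, and VEGFA, NDRG1 and BNIP3L had none in the table. At least 1 core was present in 35 of the 47 windows (74.5%), in 21 of 30 enzyme windows and 14 of 17 HIF pathway windows, whereas 48.4% of 35116 promoter windows of the same length held one. With ACGTG alone the share was 42.6% of member windows, where 21.4% of all windows held it. Several windows of a gene can overlap, so they are not independent, and a match is a description of letters, not a binding site. Known HIF targets are among the members and the base content of the windows was not matched, so no enrichment is read from these shares.

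Among other HIF targets in metabolism and pH control, PDK1 was under the filter, and CA9 and CA12 did not pass the limma test. PDK1, a kinase that inhibits pyruvate dehydrogenase, was scarce at 0.535, 0.629 and 0.558 FPKM with ZBTB16 and 0.554, 0.596 and 0.645 FPKM with pcDNA3.1. It supplied 2.63% ± 0.111 of the summed FPKM of PDK1 to PDK4 with ZBTB16 and 2.63% ± 0.174 with pcDNA3.1 (SD, n = 3 each). PDK4 was the main member of that family, at 16.4 ± 1.83 FPKM with ZBTB16 and 16.8 ± 0.980 FPKM with pcDNA3.1. CA9, the carbonic anhydrase that is a classic marker of hypoxia, was low and overlapped, at 2.79, 2.80 and 2.56 FPKM with ZBTB16 and 3.04, 2.80 and 2.12 FPKM with pcDNA3.1, from 59 to 85 reads a library. Exons of ARHGEF39 on the opposite strand cover 38.5% of CA9, and the strand setting of the counting was not given in the sources used here. CA12, a related carbonic anhydrase, was far more abundant per length, at 105.6, 104.1 and 102.7 FPKM with ZBTB16, against 100.1, 101 and 98.9 FPKM with pcDNA3.1, with a limma adjusted p of 0.708.

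VEGFA, ADM, NDRG1, BNIP3, BNIP3L and ANKRD37 had positive estimates that did not pass, and that of BNIP3L was -0.011 without pcDNA3.1 replicate 2. VEGFA, the growth factor for blood vessels, was at 4.02, 3.58 and 3.99 FPKM with ZBTB16, against 3.67, 3.34 and 3.58 FPKM with pcDNA3.1. ADM, which encodes the vasodilator adrenomedullin, was at 18.5, 20.7 and 19.9 FPKM with ZBTB16, against 18.9, 17.1 and 17.8 FPKM with pcDNA3.1. Each of these genes had 1 ZBTB16 library within the pcDNA3.1 range, and the limma adjusted p was 0.685 for VEGFA and 0.502 for ADM. NDRG1, a gene induced by hypoxia and other stresses, was at 17.3 ± 1.16 FPKM with ZBTB16 and 15.8 ± 0.677 FPKM with pcDNA3.1 (SD, n = 3 each, limma adjusted p = 0.536). BNIP3 and BNIP3L mark mitochondria for removal by autophagy. BNIP3 was at 15.0, 15.5 and 13.1 FPKM with ZBTB16, against 15.6, 12.9 and 12.6 FPKM with pcDNA3.1, with replicate 1 of the vector group as the highest of all. BNIP3L was at 17.3 ± 0.570 FPKM with ZBTB16 and 17.1 ± 0.724 FPKM with pcDNA3.1 (SD, n = 3 each). ANKRD37, a HIF target with an ankyrin repeat, lay near the limit of the filter at 1.15, 1.16 and 0.961 FPKM with ZBTB16 and 0.811, 1.18 and 0.768 FPKM with pcDNA3.1, and exons of UFSP2 on the opposite strand cover 35.2% of it.

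Oxygen-dependent enzymes that are HIF targets made up the last group of members. KDM3A, a histone H3 lysine 9 demethylase, was at 5.77, 5.84 and 5.94 FPKM with ZBTB16, against 5.48, 5.39 and 5.49 FPKM with pcDNA3.1. P4HA1, a subunit of the collagen prolyl 4-hydroxylase, was at 13.4, 12.8 and 12.9 FPKM with ZBTB16, against 12.6, 12.3 and 12.0 FPKM with pcDNA3.1. In both genes the 3 ZBTB16 values lay above the 3 pcDNA3.1 values, by a small margin. The log2 fold change was 0.09 (SE 0.050, limma adjusted p = 0.639) for KDM3A and 0.08 (SE 0.047, limma adjusted p = 0.651) for P4HA1.

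**Figure D3:**
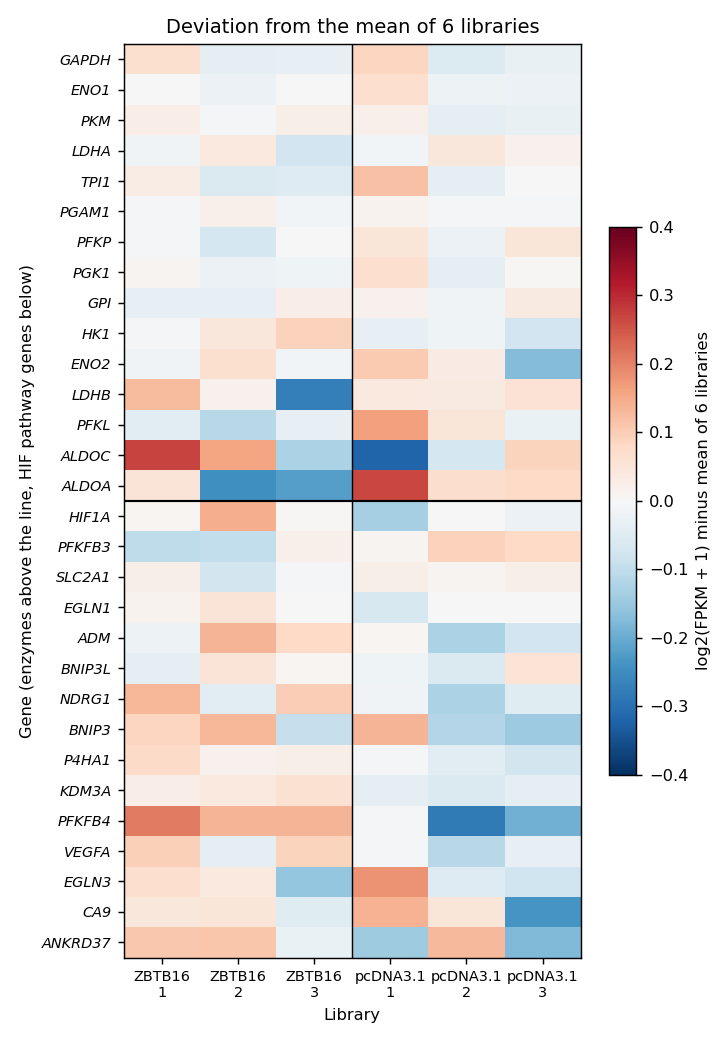
Each tested gene in each library as log2(FPKM + 1) minus its mean over the 6 libraries (red above, blue below), enzymes above the horizontal line and HIF pathway genes below, each sorted by level, with the 3 ZBTB16 libraries left of the 3 pcDNA3.1 libraries. Several enzymes are highest in pcDNA3.1 replicate 1, while PFKFB4 is above its mean in all 3 ZBTB16 libraries.

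The groups overlapped in 22 of the 30 tested members, and single libraries stood out in several of them. Among the 15 tested enzymes 8 were highest of all 6 libraries in pcDNA3.1 replicate 1, and among the 15 HIF pathway genes 4 were, whereas 20.7% of all tested genes were highest there. The 8 enzymes were GAPDH, ENO1, TPI1, PFKP, PGK1, PFKL, ENO2 and ALDOA. The median over the enzymes of the log2 level minus the pcDNA3.1 mean was -0.0024, -0.03 and -0.03 in the ZBTB16 libraries and 0.04, -0.02 and -0.01 in the pcDNA3.1 libraries, so the groups overlapped. For the HIF pathway genes it was 0.06, 0.07 and 0.04 with ZBTB16 and 0.03, -0.01 and 0.0039 with pcDNA3.1. These values did not overlap, although ZBTB16 replicate 3 at 0.0364 and pcDNA3.1 replicate 1 at 0.0345 were nearly equal.

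The enzymes had a median log2 fold change of -0.02 and the HIF pathway genes one of 0.08, where the median of all tested genes was -0.0031. Positive fold changes were found in 5 of 15 enzymes and 12 of 15 HIF pathway genes, with 48.5% of all tested genes positive. The difference between these groups of genes was not tested. Without pcDNA3.1 replicate 1 the enzyme median was 0.0070, of opposite sign, and with a library left out the HIF pathway median ran from 0.06 to 0.09.

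Genes of both pathways outside the 32 were counted from longer lists. Of 55 further HIF pathway genes 46 were tested, and limma called 1 of them, STC2, which was higher, and 0 lower, where 0.072% of all tested genes were called, with a median log2 fold change of 0.02. At an unadjusted p under 0.05, 6 of the 46 were higher and 0 lower, where 10.2% of all tested genes reached that level in either direction. Of all 12499 tested genes, 635 were higher and 646 lower at that level. The groups did not overlap in 8 of the 46 that were higher and 1 that was lower, against 8.12% and 8.1% of all tested genes. STC2, a secreted glycoprotein induced by hypoxia and by other stresses, rose with ZBTB16, at 26.6, 24.5 and 26.2 FPKM, against 19.8, 18.3 and 18.9 FPKM with pcDNA3.1. Its log2 fold change was 0.42 (SE 0.051) with a limma adjusted p of 0.0389. The call of STC2 ended without the filter, under a constant prior and when any of the 6 libraries was dropped (limma adjusted p 0.0583 to 0.174), while its log2 fold change then ran from 0.40 to 0.46. CITED2, a HIF target that competes with HIF for its coactivators, stood at 20.4, 18.9 and 19.4 FPKM with ZBTB16, against 16.4, 15.4 and 15.2 FPKM with pcDNA3.1. Its groups did not overlap and its log2 fold change was 0.30, but the limma adjusted p was 0.0912. CITED2 passed at a mean FPKM of at least 5 (limma adjusted p = 0.0243) and in limma voom (0.0124). It did not pass without the filter (limma adjusted p = 0.434), under a constant prior (0.213) or with any library dropped (0.122 to 0.277).

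**Figure D4:**
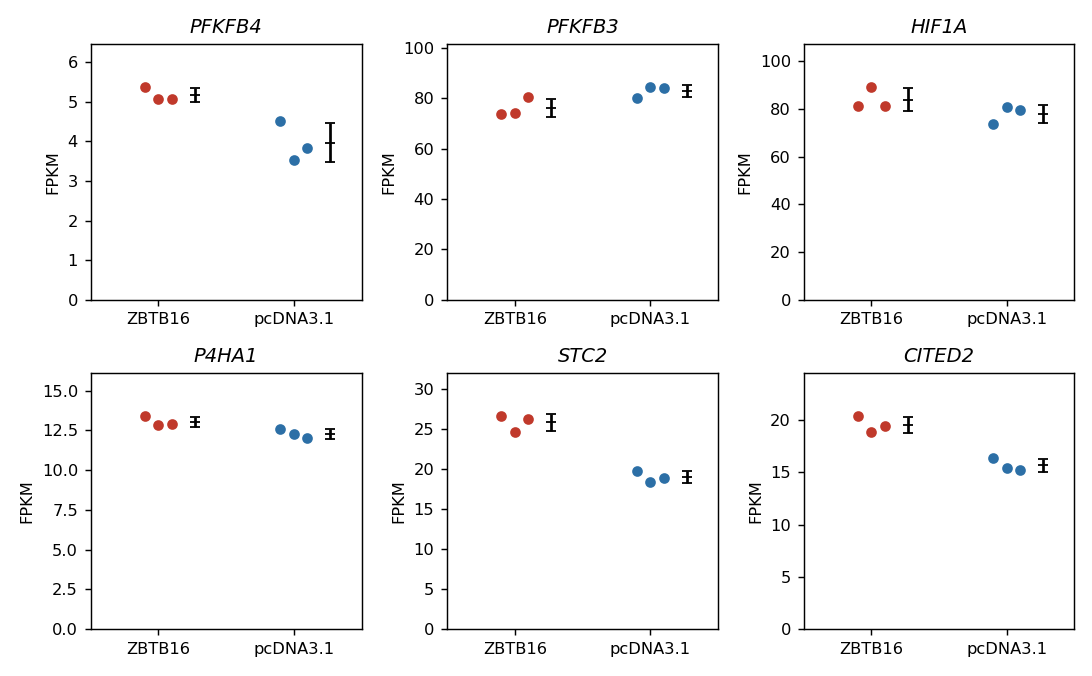
FPKM of PFKFB4, PFKFB3, HIF1A, P4HA1, STC2 and CITED2 in each of the 3 ZBTB16 libraries (red) and 3 pcDNA3.1 libraries (blue), with the mean and SD as a black bar beside each group and axes that start at 0. The groups do not overlap except in PFKFB3, and only STC2 passed the limma test on log2 FPKM.

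Collagen-modifying enzymes of the HIF lists had positive estimates, a group put together after the values were seen. Besides P4HA1, the hydroxylase subunit P4HA2 was at 7.82, 8.46 and 7.52 FPKM with ZBTB16, against 7.38, 6.56 and 6.58 FPKM with pcDNA3.1. The lysyl hydroxylase PLOD2 was at 43.2 ± 1.46 FPKM with ZBTB16 and 39.4 ± 0.967 FPKM with pcDNA3.1, and PLOD1 at 27.3 ± 0.777 FPKM with ZBTB16 and 26.1 ± 0.246 FPKM with pcDNA3.1 (SD, n = 3 each). The lysyl oxidase LOXL2 was at 102 ± 3.62 FPKM with ZBTB16 and 92.3 ± 0.445 FPKM with pcDNA3.1 (SD, n = 3 each). None of the 5 passed, at limma adjusted p from 0.252 to 0.725. Their groups did not overlap, as in 8.12% of all tested genes that were higher without overlap, but the genes were picked with this pattern in view, so nothing is read from it. The sixth, LOX, had a mean of 0.247 FPKM and was not tested.

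Of 46 further genes of glycolysis, glucose transport and pyruvate use 28 were tested, and limma called 0 higher and 0 lower, where 0.072% of all tested genes were called. At an unadjusted p under 0.05, 2 were higher and 2 lower, where 10.2% of all tested genes reached that level, and voom called 0, where it called 1.62% of all tested genes. Their median log2 fold change was -0.04. BPGM, which makes 2,3-bisphosphoglycerate, stood at 11.2, 13.2 and 11.8 FPKM with ZBTB16, against 10.2, 10.0 and 9.55 FPKM with pcDNA3.1 (log2 fold change 0.26, limma adjusted p = 0.180). The mitochondrial pyruvate carrier subunit MPC1 was at 1.18 ± 0.0541 FPKM with ZBTB16 and 0.853 ± 0.0673 FPKM with pcDNA3.1 (SD, n = 3 each), with a limma adjusted p of 0.370. GPD2, the mitochondrial glycerol phosphate dehydrogenase, was at 9.69 ± 0.421 FPKM with ZBTB16 and 10.7 ± 0.677 FPKM with pcDNA3.1 (SD, n = 3 each, limma adjusted p = 0.487). Of the 28 genes, 3 were higher and 4 lower without overlap between the groups, against 16.2% of all tested genes in either direction. The higher ones were BPGM, MPC1 and ADPGK, and the lower ones SLC2A3, GPD2, DLAT and PDHX. The lactate exporter SLC16A3 was at 19.9 ± 1.22 FPKM with ZBTB16 and 18.7 ± 0.785 FPKM with pcDNA3.1 (SD, n = 3 each), with overlapping values.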

How the data were processed

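RNA of A549 cells was sequenced after a Trizol extraction and a TruSeq preparation, per the labels' protocols. The submitters' processing notes name HISAT2 2.0.5 and the build hg38. The counter, strand setting and filters were not given in the sources used here. Per gene, the authors deposited FPKM, per the file headers, in a table that also holds lengths, positions and biotypes. Positions and merged exon lengths equalled GENCODE 29 for 100% of genes. Multiplied by length, 100% of the FPKM values were whole steps of 1 read within a tolerance of 0.01, which gave the reads. Intervals cover the spread between libraries, and read numbers carry counting error besides. Mean chi-square per gene between libraries of a group was 2.28 to 5.19, so none was a repeat deposit.

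Groups and replicate numbers came from the sample titles. limma 3.58.1 (R 4.3.3) was run on log2(FPKM + 1) of genes with a mean of at least 1 FPKM, with a trended robust prior, no covariate, and Benjamini-Hochberg adjustment over all tested genes. Fold changes are ZBTB16 over pcDNA3.1 on that scale, which understates changes of low genes. Since FPKM are no counts, no count model served as the main test. The members, the lists and the rule for named genes were chosen with earlier results of these data known. The rule names all members, per further list up to 4 genes with the smallest p, every called gene, and the relatives or regulators that a described family needs. Further genes of the lists, the collagen group among them, were named after their values were seen. A gene that the rule names is not reported here. Alternatives were a pseudocount of 0.1, no filter, a mean of at least 5 FPKM, median-ratio scaling, a constant prior, limma voom, a block for the repeat number and dropping each library in turn. The steps were tested on simulated reads. Plots were made in Python 3.11.15 with matplotlib 3.10.9.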

Additional observations from a re-analysis of the deposited data

How the results depend on the processing

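Over all genes limma called 9, against 1 without the filter, 1 under a constant prior, 75 at a mean of at least 5 FPKM, 203 in voom and 15 with the repeat number as a replicate block. Among the 32 members 0 were called, 1 in voom, and of the further HIF pathway genes 1, against 0 without the filter, 0 under a constant prior, 2 at a mean of at least 5 FPKM and 3 in voom. The repeat numbers did not pair the libraries (correlations of deviations 0.067, 0.047 and -0.044), and the block changed no call of a member. With a library left out, all genes called ran from 1 to 5, members called from 0 to 0, further HIF pathway genes called from 0 to 0, the enzyme median from -0.032 to 0.0070 and the HIF pathway median from 0.058 to 0.089. Fold changes of 9 members changed sign with some library left out, with log2 ranges of -0.011 to 0.045 (BNIP3L), -0.036 to 0.040 (GAPDH), -0.0088 to 0.0089 (PGAM1), -0.056 to 0.082 (ENO2), -0.081 to 0.049 (EGLN3), -0.17 to 0.027 (LDHB), -0.047 to 0.0070 (PGK1), -0.032 to 0.014 (ENO1) and -0.077 to 0.11 (CA9). No other setting changed a sign, and 366 of 383 member values kept sign and side of the threshold. Limiting the medians to members with at least 90% of exon bases free of other genes, a choice made after seeing the data, left them at -0.02 and 0.08. Voom used median-ratio factors, also chosen later. The planned quasi-likelihood count test and voom with TMM were not run. Depth limits HK2, CA9, ALDOA, ALDOC and ANKRD37, each with at most 144 reads a library.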
